A study of Mus musculus with 9 samples.

Results

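Irf1, Irf2, Irf5, Irf7, Irf8, Irf9, Stat2 and Stat3 encode transcription factors through which cells respond to interferons and related cytokines. These 8 genes, of 31053 in the count tables, were chosen by symbol from a fixed list. Their levels were not used to choose them, though earlier results of these data were known. Live CD11b+ cells from the brains, without cerebellum, of female C57BL/6 mice (C57BL/6J in the study's methods) aged 5 months were profiled by 10x Genomics single-cell RNA-seq in 9 libraries. Ctrl mice were not treated, and each of the 3 Ctrl libraries came from 1 brain. D0 mice had PLX5622, an inhibitor of the receptor CSF1R on which microglia depend, in their diet at 1200 mg/kg for 14 days. D2 mice had the same treatment followed by 2 days on a control diet, and each D0 or D2 library pooled 2 brains. D2-3, the third D2 library, was left out by the study and is left out here unless it is named, which gives 3 Ctrl, 3 D0 and 2 D2 libraries. Because PLX5622 removes most microglia, the D0 and D2 libraries sample the cells that were left or had come back, and a change within cells cannot be told apart from the loss of some cells.

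Type I interferons bind the receptor IFNAR, whose JAK kinases phosphorylate STAT proteins. STAT2 and IRF9 are subunits of ISGF3, a complex that binds the interferon-stimulated response element (ISRE) of its target genes. IRF7 is itself an interferon target and drives further production of type I interferon, whereas IRF1 and IRF2 are an activator and its competitor at related sites. IRF5 acts downstream of Toll-like receptors in myeloid cells, IRF8 is needed for the development of microglia and other myeloid cells, and STAT3 carries signals of the IL-6 family and IL-10 to DNA sites of the gamma-activated (GAS) type.

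Promoter windows are shown because Irf7, Irf9 and Stat2 were the members that rose in microglia. RefSeq gave promoter windows of 300 bases for 8 of the 8 genes, from 250 before to 50 after the annotated start, 11 windows in all. They were searched on both strands for GAAA-NN-GAAA, the core of the ISRE, for TTC-NNN-GAA, the GAS site, and for GGAA-NN-GAAA, a joint site of ETS factors and IRFs, where N is any base. Among 32851 such windows of mouse genes, 3.44%, 8.3% and 2.72% held these letters. The windows run 5′ to 3′ on the strand of the gene, on GRCm38.p6, and capitals mark the letters of a match.
Irf7, minus strand, chr7:141266375-141266674: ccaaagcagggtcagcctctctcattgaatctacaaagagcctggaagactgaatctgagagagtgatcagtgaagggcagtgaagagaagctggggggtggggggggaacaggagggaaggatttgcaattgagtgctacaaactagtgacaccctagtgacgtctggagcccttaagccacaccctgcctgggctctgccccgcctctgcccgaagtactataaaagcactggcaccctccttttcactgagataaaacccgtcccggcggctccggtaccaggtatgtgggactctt
Irf9, plus strand, first of 2 windows, chr14:55603735-55604034: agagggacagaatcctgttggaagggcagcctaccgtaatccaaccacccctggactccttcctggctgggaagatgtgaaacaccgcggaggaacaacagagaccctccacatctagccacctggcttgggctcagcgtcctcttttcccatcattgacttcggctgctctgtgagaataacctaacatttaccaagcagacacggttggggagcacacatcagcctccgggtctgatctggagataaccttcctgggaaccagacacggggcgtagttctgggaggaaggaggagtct
Stat2, plus strand, chr10:128270248-128270547: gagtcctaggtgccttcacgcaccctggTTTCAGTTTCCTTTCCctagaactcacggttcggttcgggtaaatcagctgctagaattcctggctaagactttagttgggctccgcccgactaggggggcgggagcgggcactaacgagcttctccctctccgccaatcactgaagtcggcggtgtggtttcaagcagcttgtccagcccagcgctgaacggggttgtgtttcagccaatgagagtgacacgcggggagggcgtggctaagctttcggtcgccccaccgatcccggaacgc
Irf8, plus strand, first of 2 windows, chr8:120736108-120736407: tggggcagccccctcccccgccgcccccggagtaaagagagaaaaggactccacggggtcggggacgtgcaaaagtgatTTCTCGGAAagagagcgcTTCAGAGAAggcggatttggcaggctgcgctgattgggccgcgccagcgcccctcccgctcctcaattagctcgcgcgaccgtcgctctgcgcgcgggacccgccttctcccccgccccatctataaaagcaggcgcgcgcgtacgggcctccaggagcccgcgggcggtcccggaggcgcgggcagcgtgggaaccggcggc

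The window of Stat2 held an ISRE core from -222 to -213, counted from the start site, and an ETS-IRF site from -216 to -207, which share 4 bases in 1 run of capitals. The windows of Irf7 and Irf9 held none of the 3 motifs in these letters. Irf8, the member on which microglial identity is known to depend, had 2 GAS matches, at -171 and -153. Irf1 had 1 GAS match, TTCCCCGAA, from -90 to -82. Irf2 had a GAS match, TTCCGAGAA, from -224 to -216, and an ETS-IRF site from -247 to -238 that overlaps an ISRE core from -241 to -232. The windows of Irf5 and Stat3 held no match. In all, 2 of the 8 genes had an ISRE core, 3 a GAS match and 2 an ETS-IRF match. Among 27025 mouse genes with windows, 3.99%, 9.55% and 3.16% had these matches.

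All 8 genes are protein coding in the GENCODE annotation of GRCm38. Irf7 (ENSMUSG00000025498) lies on chromosome 7 from 141262706 to 141266481, Irf9 (ENSMUSG00000002325) on chromosome 14 from 55603571 to 55610030 and Stat2 (ENSMUSG00000040033) on chromosome 10 from 128270559 to 128292849. Both Irf9 windows, which begin at 55603735 and 55604329, lie within this span of Irf9, so the sequence before its GENCODE start was not searched. Irf9 overlaps Rnf31 and Irf8 overlaps Gm20388 on the same strand, so how their reads were assigned is uncertain. Irf1, Irf2, Irf5, Irf7 and Stat3 overlap counted genes on the opposite strand, and whether the counting used strand is not given in the sources used here. Stat2 overlaps no other gene.

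The 8 libraries held 20257894 to 61230741 unique molecular identifiers (UMIs, tags that mark single captured transcripts). After filters on UMIs, genes and mitochondrial share, 28655 cells remained, and 21893 of them fell into 9 clusters named microglia-like from their marker genes. All 11 microglia markers were detected in these cells, at a summed level of 28560 to 34280 CPM (counts per 1000000 UMIs) in Ctrl. The sum was 19620 to 21590 CPM in D0 libraries and 16460 to 16930 CPM in D2 libraries. Another 1671 cells stayed unnamed and were not counted as microglia-like. Cluster 7 held 1618 of them, at a median of 1575 UMIs, with 381 from Ctrl-1, 29 from Ctrl-2 and 50 from Ctrl-3. The D0 libraries gave 441, 111 and 46 of its cells, and D2-1 and D2-2 gave 330 and 230. It had all 11 microglia markers at 100 CPM or more. Its first leading gene was Pf4, and Cxcl9, Apoe, Ms4a7, Ifit2 and Ifit3 were also among them. Pf4 and Ms4a7 are markers of border-associated macrophages, so the cluster has marks of both types. Its cells are outside the interferon-rich shares and the cluster levels below. The raw UMIs of each library were summed over its microglia-like cells, 1493 to 3779 per library, and these sums of 11883113 to 36824411 UMIs are the replicates of every test below. Libraries of a group came from different brains, which the study collected on 1 day. The p-values of tests within 1 cell class thus measure the spread between brains or pools of 2 brains together with that of their preparation.

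By mean level among cell types, Irf8 was highest in microglia- and lymphoid-like cells and Irf5 in monocyte-like cells. Irf7, Irf9 and Stat2 had their highest means in classical monocyte- and endothelial-like cells, with overlap of other classes given below. These levels are CPM of summed UMIs, as the mean over libraries with at least 20 cells of a class, and no test was made of them. The libraries behind a class differed in treatment, so class and treatment are not separated in these levels. Lymphoid-like cells had 0 Ctrl, 2 D0 and 1 D2 libraries, and nonclassical monocyte-like cells had 2 Ctrl libraries only. Classical monocyte- and dendritic cell-like cells each had 1 Ctrl, 3 D0 and 2 D2 libraries. Irf8 had 505 ± 56.2 CPM (SD, n = 8 libraries) in microglia-like cells, 482 ± 75.1 (n = 3) in lymphoid-like cells and 349 ± 67.8 (n = 8) in border-associated macrophage-like cells. The ranges of microglia- and lymphoid-like cells overlapped, as did those of lymphoid- and macrophage-like cells. Irf8 was lower in classical monocyte-like cells, at 215 ± 20.9 CPM (n = 6), and in dendritic cell-like cells, at 108 ± 31.3 (n = 6). Endothelial-like cells, which are not known for Irf8, had 40.8 ± 15.3 CPM (n = 8).

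With each cell thinned to 2000 UMIs, 62.1% of microglia-like cells had an Irf8 UMI, and 91.9% without thinning. In endothelial-like cells the thinned share was 4.76%. Median depths were 7181 UMIs in the former and 3644 in the latter. Irf5 had 276 ± 37.6 CPM (n = 6) in classical and 273 ± 84.0 (n = 2) in nonclassical monocyte-like cells, above every library of microglia-like cells, at 153 ± 26.6 (n = 8). Dendritic cell-like cells had 152 ± 22.8 CPM (n = 6) and macrophage-like cells 141 ± 11.3 (n = 8) of Irf5, and these ranges overlapped that of microglia. The remaining 6 classes had 39.1 CPM or less.

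Irf7 had 208 ± 58.8 CPM (n = 6) in classical monocyte-like cells, 93.7 ± 50.4 (n = 8) in endothelial-like cells and 11.6 ± 5.76 (n = 8) in microglia-like cells. The lowest monocyte library, at 129 CPM of Irf7, stood above the highest microglial library, at 17.9, and each of the 6 other immune classes had a higher mean than microglia. Classical monocyte- and endothelial-like cells overlapped in Irf7, Irf9 and Stat2. Endothelial-like cells also overlapped every other immune class but microglia in Irf7. In Irf9 both overlapped dendritic cell-, neutrophil- and macrophage-like cells, and in Stat2 macrophage-like cells. Irf9 and Stat2, the DNA-binding and transactivating partners in ISGF3, were highest in the same pair of classes. Irf9 had 101 ± 21.9 CPM (n = 8) in endothelial- and 98.9 ± 42.8 (n = 6) in classical monocyte-like cells, against 41.9 ± 9.23 (n = 8) in microglia-like cells, and their ranges did not overlap that of microglia. Stat2 had 68.6 ± 31.1 CPM (n = 6) in classical monocyte- and 59.1 ± 11.2 (n = 8) in endothelial-like cells, both above every microglial library, at 20.04 ± 5.47 (n = 8).

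All members but Stat2 had at least 1 UMI in each of the 11 classes. In the 1 library of ependymal-like cells, Irf7 rested on 1 UMI, Irf1 and Irf9 on 2 each, and Stat2 on 0. With a minimum of 10 cells, Stat2 had 4 UMIs in that class. Irf7 rested on 4 UMIs each in astroglial- and mural-like cells, and counts this low do not show expression or its absence. Irf1 had its highest mean in lymphoid-like cells, at 136 ± 8.02 CPM (n = 3, on 64 UMIs), and had 60.5 ± 11.1 (n = 8) in microglia-like cells. Neutrophil-like cells overlapped the former, at 42.3 to 189.5 CPM of Irf1. Stat3 had its highest mean in nonclassical monocyte-like cells, at 240 ± 17.3 CPM (n = 2, on 108 UMIs), and had 72.2 ± 7.42 (n = 8) in microglia-like cells. Neutrophil-like cells reached 235.6 CPM of Stat3, above the lower nonclassical monocyte library at 227.3. Irf2 lay between 151 and 225 CPM in the mean of each of the 8 classes of immune and endothelial cells, and neighbours in that order overlapped.

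**Figure D1:**
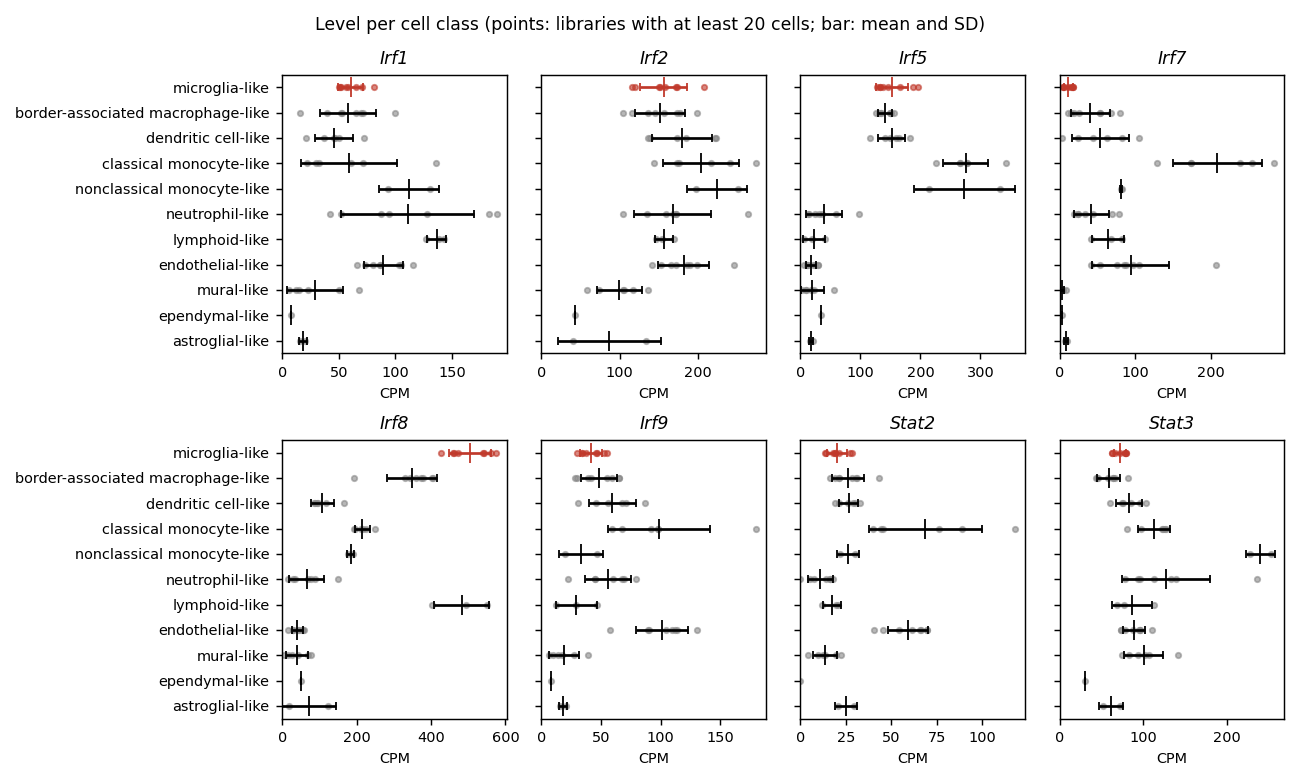
Level of each gene (CPM, linear axis from 0) in 11 cell classes. Points are libraries with at least 20 cells of the class, bars the mean and SD over libraries, and microglia-like cells are in red. Irf8 stands out in microglia-, lymphoid- and macrophage-like cells, and Irf7 in classical monocyte-like cells.

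The genes whose levels most resembled each member over 57 sums, of 11 classes in the 8 libraries, were found by Pearson's r of log2(CPM + 10) among 11023 genes. Irf7 was like Sp100 (r = 0.826), and Stat2 most like Eif2ak2 (0.831) and Rnf213 (0.818). Irf9 was most like Rnf213 (0.756) and Pik3r6 (0.745). Irf8 was most like Ifngr1 (0.913) and Pycard (0.909), and Irf5 most like Ms4a6d and Pld4 (both 0.943). The nearest genes were Trim12a (0.700) for Irf1, Msn (0.797) for Irf2 and Kpna4 (0.764) for Stat3. Sums of 1 library share its depth and processing, so these values describe likeness only.

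To ask which members changed when most microglia had been removed, D0 was compared with Ctrl in microglia-like cells. Of the 8 members, 2 rose, Irf7 and Stat2, and none fell, while 20% of all 12423 genes tested were called, 12.4% higher and 7.59% lower. Each test is edgeR's quasi-likelihood test on the sums of UMIs, with TMM scaling and Benjamini-Hochberg adjustment over all genes tested, and a gene was called at an adjusted p under 0.05. Levels per library are CPM on the TMM scale from here on, unless stated, and fold changes are log2 values with their standard error (SE).

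Irf7, the interferon-induced amplifier, had 5.04, 4.80 and 4.45 CPM in Ctrl-1, Ctrl-2 and Ctrl-3, and 11.04, 19.9 and 17.04 in D0-1, D0-2 and D0-3. Every D0 library lay above every Ctrl library, with D0-1 the lowest of the 3. These levels rested on 95 to 152 Irf7 UMIs in Ctrl and 201 to 654 in D0 libraries. The log2 fold change was 1.75 (SE 0.217, adjusted p = 0.000502), or 3.36-fold. Groups that did not overlap were found for 38.8% of all genes, 18.9% higher and 19.9% lower in D0.

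Stat2, the ISGF3 subunit with the transactivation domain, had 15.9, 13.1 and 13.2 CPM in the Ctrl libraries and 21.8, 21.2 and 20.3 in the D0 libraries. The groups did not overlap, and the rise was 0.58 (SE 0.125, adjusted p = 0.0114). This call was lost without Ctrl-2 (adjusted p = 0.0538) or Ctrl-3 (0.0544), both of which carry another version of Cell Ranger, the counting software, in their headers than the D0 libraries. Irf9, the DNA-binding subunit, had 41.1, 28.4 and 32.0 CPM in Ctrl and 47.1, 42.2 and 37.0 in D0. D0-3 lay below Ctrl-1, and the difference of 0.31 (95% interval -0.03 to 0.66, adjusted p = 0.182) did not pass the test.

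Of the other members, none passed the test in D0. Irf8 had 495, 519 and 514 CPM in Ctrl and 487, 515 and 458 in D0, a difference of -0.07 with a 95% interval of -0.31 to 0.17. The corresponding intervals were -0.46 to 0.09 for Irf5, -0.48 to 0.15 for Irf2, -0.25 to 0.77 for Irf1 and -0.26 to 0.31 for Stat3. D0-2 stood above all other libraries in Irf1, the interferon gamma-responsive activator, at 91.2 CPM against 44.0 to 66.8 in Ctrl and 52.6 and 55.4 in the other D0 libraries. Without TMM scaling, the D0 levels of Irf5, Irf8 and Stat3 lay wholly below those of Ctrl, whereas after it they overlapped, so no direction is given for them.

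**Figure D2:**
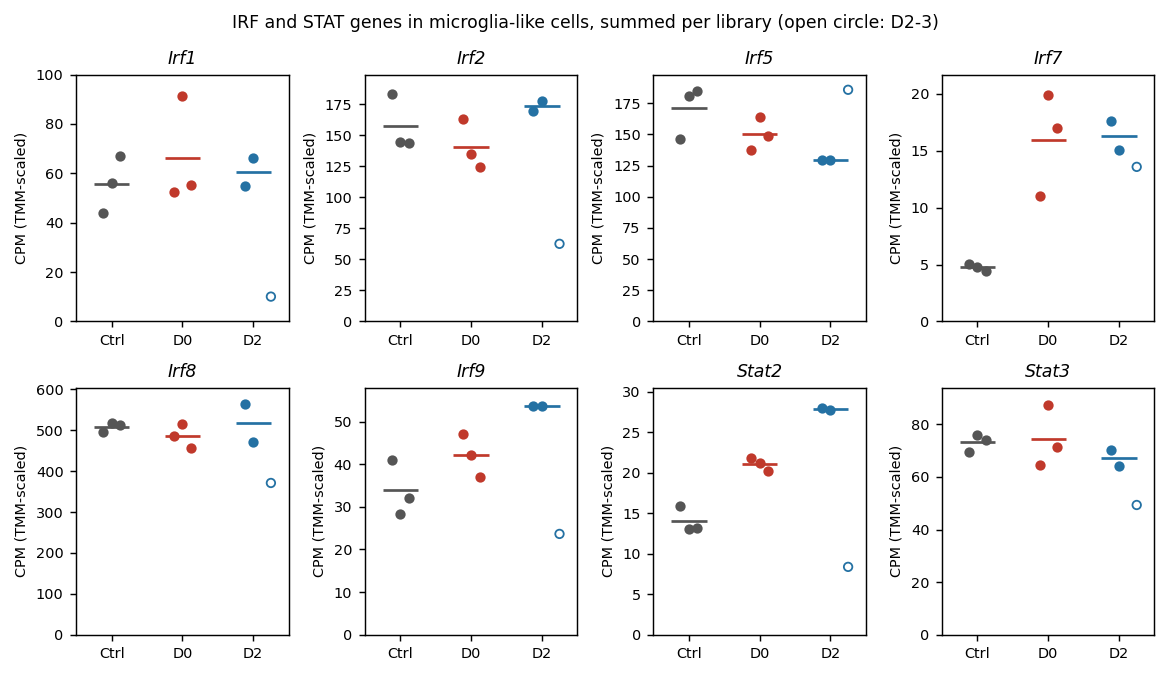
CPM (TMM-scaled, linear axis from 0) of each gene in the microglia-like cells of each library. Filled circles are the libraries tested, lines their group means and open circles D2-3. Irf7 lies between 4.45 and 5.04 CPM in Ctrl and between 11.04 and 19.9 in D0 and D2.

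After 2 days without PLX5622, 3 of the 8 members, Irf7, Stat2 and Irf9, stood higher than in Ctrl and none lower, while 18.1% of all genes were called, 10.6% higher and 7.52% lower. Irf7 had 17.6 and 15.05 CPM in D2-1 and D2-2, both above all Ctrl libraries, and rose by 1.78 (SE 0.236, adjusted p = 0.000863), or 3.43-fold. Stat2 had 28.1 and 27.8 CPM, above every Ctrl and every D0 library, and rose by 0.99 (SE 0.138, adjusted p = 0.00118) against Ctrl. Groups did not overlap for 49.4% of all genes in this comparison, 23.5% higher and 25.9% lower in D2, and for 24% between D2 and D0, 11.1% higher and 12.8% lower.

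Irf9 had 53.7 and 53.6 CPM in the D2 libraries, again above all others, and rose by 0.66 (SE 0.170, adjusted p = 0.0249) against Ctrl. That call was lost when Ctrl-2 (adjusted p = 0.0837), Ctrl-3 (0.0767), D2-1 (0.0867) or D2-2 (0.114) was left out. With D2-3 included, where it had 13.6 CPM of Irf7, 8.39 of Stat2 and 23.7 of Irf9, Irf7 was still called in D2 (1.72, adjusted p = 0.00274), whereas Stat2 (0.65, adjusted p = 0.283) and Irf9 (0.40, adjusted p = 0.414) were not. Irf5, which acts downstream of Toll-like receptors, had 130 CPM in both D2 libraries, below the 147, 181 and 185 of Ctrl. Its difference of -0.39 (95% interval -0.71 to -0.08) had an adjusted p of 0.0801, which did not pass the test, and passed it only without Ctrl-1 (-0.47, adjusted p = 0.0230) among the alternatives run. The intervals of the remaining members were -0.24 to 0.30 for Irf8, -0.21 to 0.49 for Irf2, -0.45 to 0.69 for Irf1 and -0.45 to 0.20 for Stat3.

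Between D2 and D0, 0 of the 8 members and 0 of 12423 genes (0%) passed edgeR's test, and 1 member and 849 genes had an unadjusted p under 0.05. DESeq2 called 0 members and 28 genes. The member was Stat2, at 0.41 (SE 0.138, 95% interval 0.10 to 0.72, adjusted p = 0.702). For Irf7 the difference was 0.03 with an interval of -0.49 to 0.55, and for Irf9 0.35 with an interval of -0.03 to 0.73. D0 and D2 were set against the same Ctrl libraries, so their values are given side by side and not as independent results.

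**Figure D3:**
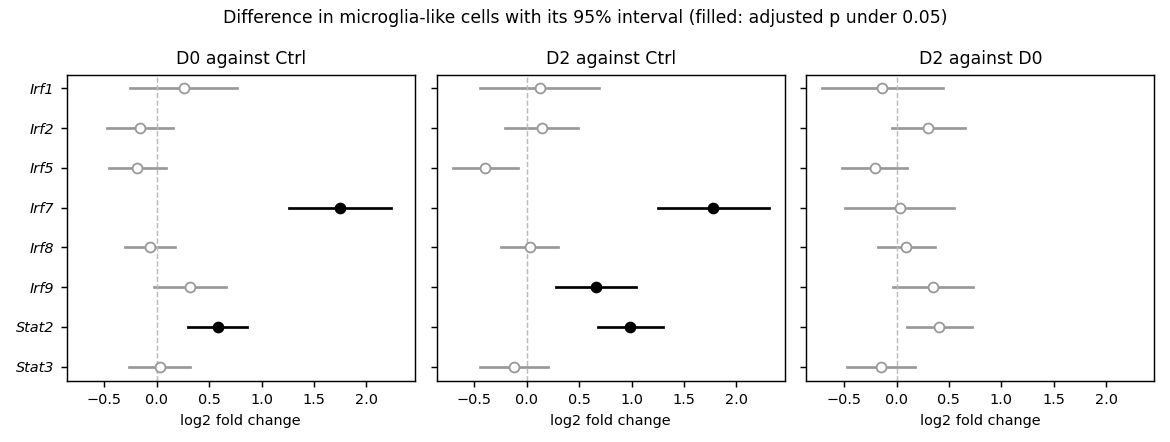
Log2 fold change of each gene in microglia-like cells with its 95% interval, for D0 against Ctrl, D2 against Ctrl and D2 against D0. Filled points passed edgeR's test at an adjusted p under 0.05, which are Irf7 and Stat2 in D0 and Irf7, Irf9 and Stat2 in D2.

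The Cell Ranger version in the file headers was 3.0.2 in Ctrl-1, the D0 libraries, D2-1 and D2-2, and 3.1.0 in Ctrl-2 and Ctrl-3. Within version 3.0.2, where Ctrl-1 alone stood for Ctrl and was assumed to vary like the other groups, Irf7 rose by 1.69 in D0 (adjusted p = 0.0334) and 1.72 in D2 (0.0374). Stat2 differed by 0.42 in D0 (adjusted p = 0.208), which did not pass the test, and rose by 0.84 in D2 (0.0485). Irf9 differed by 0.05 in D0 (0.884) and 0.41 in D2 (0.319), with neither past the test.

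Summed markers of other cells also differed between groups in the microglia-like sums. The 8 mitotic markers summed to 8.80 to 20.2 CPM in Ctrl, to between 566 and 652 in D0 and to between 820 and 881 in D2, with none at 0. Without the cells of the 2 mitotic clusters, the Irf7 rise was 1.61 in D0 (adjusted p = 0.00259) and 1.53 in D2 (0.00513). The 7 classical monocyte markers, a class rich in Irf7, summed to 8.01 to 9.34 CPM in Ctrl, to between 20.6 and 34.9 in D0 and to between 22.1 and 75.6 in D2, with none at 0. Lower in D0 than in Ctrl, without overlap, were the astroglial markers (167.6 to 182.7 CPM in Ctrl, at most 106 in D0), those of border-associated macrophages (20.03 to 40.8, at most 12.6), oligodendrocytes (48.5 to 55.1, at most 39.9) and endothelial cells (38.8 to 50.4, at most 30.9). The other 7 lists overlapped between Ctrl and D0. The part of these in the results was not tested. In microglia drawn cell by cell, with UMIs of at least 3 microglia markers and fewer than 2 markers of any other type, Irf7 rose by 1.39 in D0 (adjusted p = 0.000836) and 1.73 in D2 (0.000575).

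Irf7 came mostly from few cells. A cell was called interferon-rich where 25 type I interferon target genes, none of them a member, held over 0.346% of its UMIs, the mean plus 2 SD of Ctrl microglia-like cells. Such cells are the upper end of a range and not a cell type, and 14 to 18 cells per Ctrl, 58 to 160 per D0 and 66 to 137 per D2 library lay within 10% of the limit. They made up 2.15%, 1.53% and 2.81% of microglia-like cells in the Ctrl libraries, 8.88%, 17.1% and 18.8% in D0, and 21.5% and 17.8% in D2. Every D0 and D2 library stood above every Ctrl library. The targets themselves rose with treatment, so this share is a description.

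Interferon-rich cells held 51.6% to 69.5% of all Irf7 UMIs of microglia-like cells in Ctrl libraries, between 65.2% and 76.8% in D0 and between 73.1% and 74.1% in D2. Within these cells Irf7 had 154 ± 34.2 CPM in Ctrl (SD, n = 3, without TMM scaling), 60.6 ± 7.52 in D0 (n = 3) and 52.8 ± 1.20 in D2 (n = 2). Since 1 limit takes a smaller and more extreme share of cells in Ctrl than in D0 or D2, these levels are not compared between groups. The remaining cells had 1.94 ± 0.492 CPM in Ctrl, 4.93 ± 0.625 in D0 and 5.58 ± 0.834 in D2. With interferon-rich cells left out, which removes unequal parts of the groups, Irf7 had differences of 1.57 in D0 (adjusted p = 0.00229) and 1.63 in D2 (0.00371).

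Stat2 and Irf9 were less concentrated in interferon-rich cells than Irf7. In Ctrl libraries these cells held 9.27% to 16.3% of Stat2 and 3.56% to 5.77% of Irf9 UMIs. For Stat2 the share was 30.2% to 46.5% in D0 and 38.1% to 46.4% in D2. For Irf9 it was 14.45% to 25.5% in D0 and 27.8% to 31.8% in D2. Stat2 had 90.8 ± 11.8 CPM in the interferon-rich cells of Ctrl, 43.02 ± 10.49 in D0 and 51.7 ± 2.49 in D2, against 13.5 ± 2.16, 14.9 ± 1.91 and 20.8 ± 0.617 in the remaining cells. Without interferon-rich cells the Stat2 difference was 0.36 in D0 (adjusted p = 0.133), no longer past the test, and 0.72 in D2 (0.0171). Irf9 had 78.9 ± 13.2, 47.7 ± 8.04 and 70.2 ± 0.0998 CPM in the interferon-rich cells of Ctrl, D0 and D2, and 35.7 ± 8.60, 37.5 ± 5.98 and 48.6 ± 1.22 in the remaining cells. Its difference in D2 was 0.55 (adjusted p = 0.0662) without interferon-rich cells and did not pass the test. Irf8, Irf5, Irf2 and Stat3 had between 1.45% and 3.08% of their UMIs in the interferon-rich cells of Ctrl libraries, close to the share of cells. Irf1 had between 2.34% and 5.76% there.

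**Figure D4:**
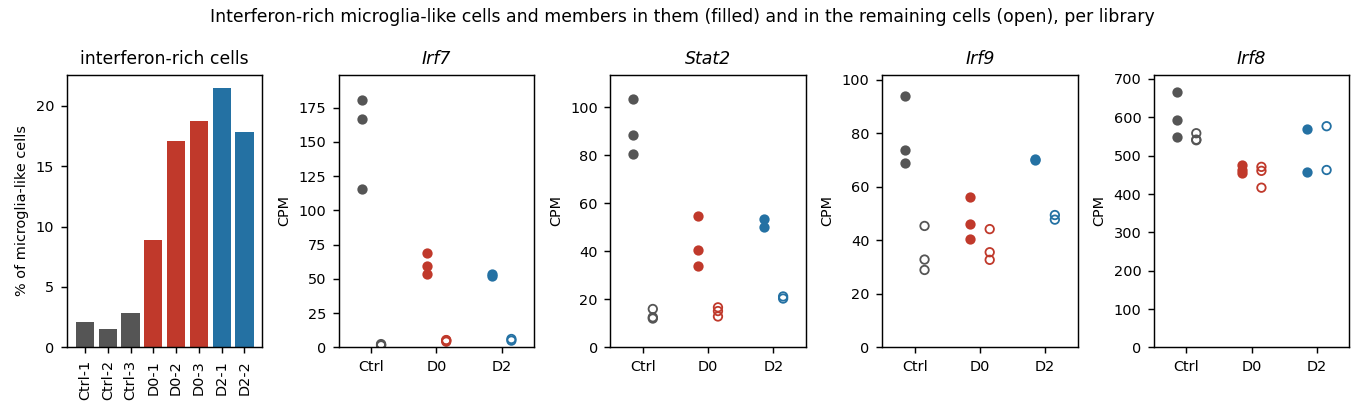
Left, share of microglia-like cells that were interferon-rich in each of the 8 libraries (bars, in percent). Right, CPM of Irf7, Stat2, Irf9 and Irf8 per library in interferon-rich cells (filled circles) and in the remaining microglia-like cells (open circles). Irf7 stands higher in interferon-rich than in the remaining cells of every library, in Ctrl at 116 CPM or more against 2.46 or less.

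By cell, after thinning to 2000 UMIs, 0.626% to 0.812% of microglia-like cells had an Irf7 UMI in Ctrl libraries, between 1.48% and 3.41% in D0 and between 2.25% and 2.97% in D2. Without thinning these shares were 2.14% to 2.54% in Ctrl, up to 8.54% in D0 and up to 7.63% in D2. In mural-like cells, the class lowest in Irf7, the mean thinned share was 0.30%, with a median depth of 4106 UMIs.

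Among the 9 microglia-like clusters, drawn without the members and without the genes of the pathway lists, Irf7 had its highest means in the 2 mitotic clusters. These had 29.8 CPM (cluster 14, led by Top2a) and 24.0 (cluster 10, led by Ccnb2), each in 5 libraries, against 5.43 to 17.6 in the other clusters. No Ctrl library had 20 cells in them, whereas the means of the other clusters include Ctrl. Within each of the 5 D0 and D2 libraries, 1 of the 2 mitotic clusters had the highest Irf7, but the other did not always exceed the rest. In D0-1 cluster 14 had 10.53 CPM and cluster 5 had 20.4, and in D2-1 cluster 10 had 21.5 and cluster 5 had 29.2. In D0-2 cluster 10 had 21.77 CPM and cluster 5 had 22.53. Irf1 had its highest means in cluster 5, led by the cytokine genes Tnf, Il1a and Il1b, and in cluster 3, led by immediate early genes and Ccl3 and Ccl4, with 122 and 94.5 CPM against 36.5 to 61.4 in the others. In cluster 5, Irf1 had 154 and 253 CPM in Ctrl-2 and Ctrl-3, 96.9, 109 and 76.9 in the D0 libraries and 85.9 and 77.0 in the D2 libraries. Both Ctrl libraries with enough cells lay above all others there, which was not tested. In cluster 3, Irf1 had 116, 75.2 and 82.1 CPM in the Ctrl libraries, 99.3, 114 and 78.9 in D0 and 65.9 and 124 in D2, and these groups overlapped. Cluster 3 stood above cluster 5 in D0-1, D0-2, D0-3 and D2-2. Irf8 ranged from 420 to 588 CPM over the 9 clusters.

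By a test of the difference run at 1 setting, the rise of Irf7 at D0 was larger in microglia-like cells than in 2 other classes. In border-associated macrophage-like cells Irf7 had 52.8, 53.6 and 19.5 CPM (without TMM scaling) in the Ctrl libraries and 11.4, 67.7 and 26.0 in D0, on 6 to 81 UMIs. The groups overlapped, and the difference was 0.06 (95% interval -1.12 to 1.24, adjusted p = 0.977). In endothelial-like cells Irf7 had 41.1, 207 and 96.4 CPM in Ctrl and 53.0, 105 and 85.3 in D0, a difference of -0.46 (95% interval -1.24 to 0.32, adjusted p = 0.948). Tested with edgeR on both classes with library as a block, the D0 effect in macrophage-like cells minus that in microglia was -1.75 (SE 0.389, adjusted p = 0.0170), where 2.11% of genes were called. In endothelial-like cells it was -2.16 (SE 0.312, adjusted p = 5.92e-07), where 4.20% were called.

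In neutrophil-like cells the same difference for Irf7 was -1.67 (SE 0.576, adjusted p = 0.214) and did not pass the test, where 0.806% of genes were called. No other member passed the test of a difference between classes, and in mural-like cells (1.06% called) Irf7 had too few UMIs for a value. Within macrophage-, endothelial-, mural- and neutrophil-like cells, 0 of 8, 8, 4 and 7 members tested were called between D0 and Ctrl by edgeR, and 0 by DESeq2. At an unadjusted p under 0.05 there were 0, 0, 1 and 2, and 5.32%, 0.0122%, 0.0235% and 0.110% of all genes were called. Cluster 12 held 53.8% of the macrophage-like cells of Ctrl and 73% of those of D0. Its cells were shallow, with a median of 1830 UMIs and a median mitochondrial share of 7.12%, and it had all 11 microglia markers at 100 CPM or more. The macrophage-like class thus differed in make-up between the groups compared, and the part of this in its Irf7 values was not tested.

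The pathway around the members was described with lists of genes chosen by function, with earlier results of these data known. The counts of these lists are a description and stand beside 12.4% of all genes higher and 7.59% lower in D0, and 10.6% and 7.52% in D2. Of 25 type I interferon targets tested, 19 rose in D0 and 21 in D2 and none fell, with a median log2 fold change of 1.11 and 1.84 against -0.05 and -0.03 over all genes. Ifi27l2a, which interferon induces, had 26.4 ± 8.60 CPM in Ctrl, 588 ± 254 in D0 (log2 fold change 4.48, SE 0.375, adjusted p = 4.2e-05) and 820 ± 182 in D2. Cxcl10, a chemokine, rose by 2.98 in D0 (adjusted p = 0.0106), and Ifi204, a DNA sensor, by 2.74 (0.000388). Ifitm3, which restricts virus entry, rose by 2.63 in D2.

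Of 15 receptor genes tested, 2 rose and 3 fell in each of D0 and D2, and the share that rose was near that of all genes. Ifnar1, a chain of the type I interferon receptor, rose by 0.48 in D0 (adjusted p = 0.0323) and 0.75 in D2 (0.00670), and Ifngr2, a chain of the interferon gamma receptor, by 0.41 (0.0444) and 0.57 (0.0191). Il6st, which encodes the gp130 chain that activates STAT3, fell by 0.87 in D0 (adjusted p = 0.00288) and by 1.15 in D2 (0.00143). Lifr, a partner of gp130, fell by 0.80 (0.00549) and 0.64 (0.0288), and Il21r by 0.36 (0.0436) and 0.63 (0.00710). None of the 4 JAK kinases was called.

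Sensors and kinases upstream of the IRFs included no rise. Of 17 tested, 4 fell in D0 and 3 in D2, beside 7.59% and 7.52% of all genes. Tmem173, which encodes the DNA-response adaptor STING, had 253 ± 17.5 CPM in Ctrl, 178 ± 22.1 in D0 (-0.51, adjusted p = 0.0189) and 136 ± 9.97 in D2 (-0.89, adjusted p = 0.00227). Tlr4, the receptor of lipopolysaccharide, fell by 0.59 and 0.72 (adjusted p = 0.0127 and 0.00908), Tlr3, a receptor of double-stranded RNA, fell by 0.62 in D0 (0.0385), and Myd88, the adaptor through which Toll-like receptors reach IRF5, fell by 0.44 in D0 (0.0432) and 0.68 in D2 (0.0131). Among 7 interferon and cytokine genes tested, 1 rose and 1 fell in D0 and 2 fell in D2. These, named after their values were seen and all under 20 CPM, were Il12b (higher in D0), Il27 (lower in both) and Il15 (lower in D2). Ifnb1, which encodes interferon beta, had means of 1.54, 2.31 and 0.990 CPM in Ctrl, D0 and D2 and was not called, with a 95% interval of -1.59 to 2.82 for D0 against Ctrl.

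Of 17 interferon gamma and IRF1 targets tested, 8 rose and 1 fell in D0, and 9 rose in D2. The antigen presentation genes H2-D1 (1.19, adjusted p = 0.000558), B2m (0.99, 0.000364) and H2-K1 (0.87, 0.00257) rose in D0, and the GTPase Igtp fell by 0.41 (0.0476). The guanylate-binding protein genes Gbp2 and Gbp3 rose by 1.92 and 1.41 in D2. Of 12 STAT3 targets tested, 7 rose and 1 fell in D0 and 3 rose and 1 fell in D2. Pim1, a kinase, rose by 2.41 in D0 (adjusted p = 0.0143), Cebpb by 0.99 (0.0290) and Fgl2 by 1.65 in D0 and 2.37 in D2, whereas Cebpd, like Cebpb a transcription factor, fell by 0.82 and 1.11. Stat3 itself was not called in either comparison.

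Inhibitors of JAK-STAT signalling included 3 rises in D0 and 2 in D2 among 17 tested, near the 12.4% and 10.6% of all genes called higher, and no fall. All 3 were under 20 CPM, and they are named after their values were seen. Usp18, which blocks the type I interferon receptor, had means of 4.46 CPM in Ctrl, 10.54 in D0 and 13.96 in D2. Socs2 went from 2.73 in Ctrl to 12.4 and 13.02 CPM, and Cish rose in D0 from 0.493 to 1.42. Of 9 partners of IRF8 in myeloid cells, 1 rose and 2 fell in each comparison. Batf3 rose by 0.61 in D0 (adjusted p = 0.00473) and 0.79 in D2 (0.00195), Sall1, a factor of microglial identity, fell by 0.58 (0.00446) and 0.81 (0.00148), and Ikzf1 fell by 0.44 (0.0232) and 0.50 (0.0240). Spi1, which encodes PU.1, was among those not called.

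**Figure D5:**
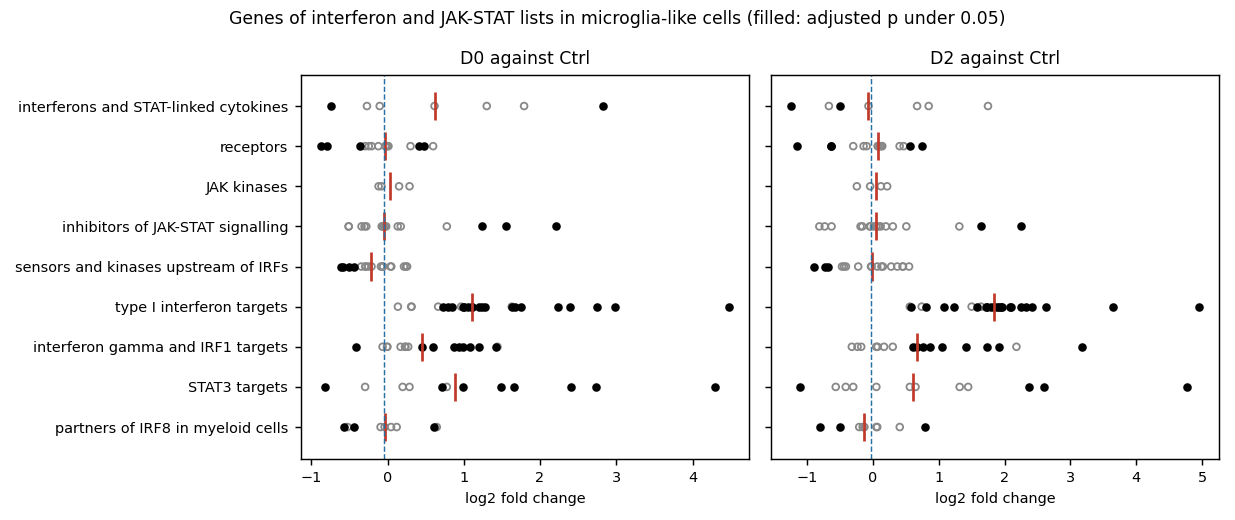
Log2 fold change of each tested gene of 9 lists in microglia-like cells, for D0 and D2 against Ctrl. Filled points passed edgeR's test at an adjusted p under 0.05, red bars are list medians and the dashed line is the median of all 12423 genes. Type I interferon targets, with a median of 1.11 in D0 and 1.84 in D2, hold 19 and 21 called genes, all to the right of 0.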

How the data were processed

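The labels describe live CD11b+ brain cells sorted by flow cytometry and 10x Genomics 3′ libraries, with reads aligned to mm10. The authors counted UMIs per gene and cell barcode with Cell Ranger (3.1.0 in the submitters' processing notes, 3.0.2 or 3.1.0 per the file headers) and deposited raw counts, one table per library, with 0 columns that match no sample. A cell was used if it held between 500 and 20000 UMIs and 200 genes or more, with a mitochondrial share of no more than 10%, and no doublet caller was run. They were clustered with scanpy 1.11.5 (3000 variable genes without the members and list genes, total UMIs and mitochondrial share regressed out, 10 principal components, 20 neighbours) and leidenalg 0.10.2 at resolution 0.6 into 20 clusters, named from at least 3 marker genes, so that names are rebuilt and not the authors'. Cluster 9 (1389 cells), with markers of several myeloid classes, was clustered once more on its own. That step gave the dendritic cell- and nonclassical monocyte-like classes, 307 of 335 classical monocyte-like cells and part of the macrophage-like class. It was not repeated at the other resolutions. Of 36391 barcodes, 142 occurred in more than 1 library.

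Raw counts were summed per library and class, and tested across all genes with edgeR 4.0.16 (filterByExpr, TMM, glmQLFit and glmQLFTest, 1 fit of 3 groups, 2-sided), with Benjamini-Hochberg adjustment, after tests on simulated counts. DESeq2 1.42.0, other scaling and filters, libraries left out, other cell selections, thinning, Cell Ranger version and a replicate block were alternatives. The interaction of class and condition had library as a block. The main fit held no replicate term, and the replicate number was a block in an alternative only. Deviations of same-numbered D0 and Ctrl libraries correlated (r = 0.398, 0.220 and 0.175 across genes). Differently numbered D0 and Ctrl libraries ranged from -0.365 to 0.276, so these values do not establish pairs, and no label gives any. Same-numbered D2 libraries had r of 0.052 and 0.090 with Ctrl and of -0.134 and 0.267 with D0.

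The members and gene lists were chosen with earlier results of these data known. All members are named, and of each list shown up to 3 called genes with the largest rise and 3 with the largest fall in each comparison, at 20 CPM or more in the higher group. UMIs mark molecules, and intervals cover the spread between libraries only. One item is not reported here.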

Additional observations from a re-analysis of the deposited data

Results flagged for a closer look

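The D0 effect on Irf7 differed between cell classes in a test of the difference itself (edgeR, library as a block). The log2 effect in border-associated macrophage-like cells minus that in microglia-like cells was -1.745 (SE 0.389, adjusted p = 0.0170), and that in endothelial-like cells minus microglia-like cells was -2.163 (SE 0.312, adjusted p = 5.92e-07). Microglia-like cells had the lowest Irf7 in Ctrl of the 3 classes, at 4.45 to 5.04 CPM after TMM scaling, and Irf7 was higher than that in 3 of 3 D0 libraries.

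D2-3, which was left out of the comparisons unless named, had 13.59 CPM of Irf7 in its 741 microglia-like cells, above the highest Ctrl library at 5.04. Its Irf5 was 185.7 CPM after TMM scaling, against a highest Ctrl library of 184.8. Without TMM scaling it was 144.6 CPM, below the 166, 188.2 and 195.3 of Ctrl, so no direction is given for Irf5. Irf1, Irf2, Irf8, Irf9, Stat2 and Stat3 lay below every Ctrl library in D2-3 on the TMM scale, Irf8 for instance at 371.2 CPM against 495.3 or more. D2-3 was left out of the clustering, and each of its cells took the most frequent cluster among its 30 nearest clustered cells. By this placing, 90.3% of its microglia-like cells fell into the mitotic clusters, against 13.8% in D2-1 and 19.0% in D2-2. Its mitotic markers summed to 1638 CPM, against 820 and 881 in those libraries, and the part of the placing in the share was not tested. The summed microglia markers of D2-3, at 8171 CPM, were below those of every other library. It is 1 library, and its values carry no replicate error.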

How the results depend on the processing

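Irf7 was called in D0 and in D2 under all 24 alternatives, with log2 fold changes of 1.38 to 1.97 and 1.43 to 1.90. Stat2 in D2 lost its call in 1 of 24, with D2-3 included (0.65, adjusted p = 0.283), Stat2 in D0 in 8 (adjusted p from 0.000610 to 0.508 over all alternatives) and Irf9 in D2 in 10 (0.00473 to 0.414). Of 8 members, the number called in D0 was 2 and became 1 with D2-3 included, with no upper limit on UMIs, with cells thinned to 2000 UMIs, without interferon-rich cells, with Cell Ranger version as a term and with 3.0.2 libraries only. It ranged from 1 (without Ctrl-2 or Ctrl-3) to 3 (without Ctrl-1) as single libraries were left out. In D2 the number was 3, ranged from 2 to 4 with libraries left out, and became 1 with D2-3 included. With the replicate block the numbers were 2, 3 and 0 again, and the block changed no call of a member (Irf7 1.73 in D0, adjusted p = 0.00131). The paired fit called 2954 genes in D0 against 2488. The difference of the D0 effect between cell classes was tested at 1 setting, without single libraries left out or Cell Ranger version as a term.

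Members that were not called turned direction in places. In D0 these were Stat3 with no upper limit (-0.05606) and with microglia drawn cell by cell (-0.01549), and Irf5 with version as a term (0.03446) or 3.0.2 only (0.05146). In D2 they were Irf8 with no filter (-0.001295), D2-3 included (-0.09363), no upper limit (-0.01593) and all myeloid clusters (-0.01763), Irf1 with D2-3 (-0.3106) and no upper limit (-0.1002), and Irf2 with D2-3 (-0.1761), version as a term (-0.07994) and 3.0.2 only (-0.05398). Between D2 and D0 they were Irf7 with D2-3 (-0.04142), thinned (-0.07062) and without mitotic clusters (-0.07326), Irf8 (-0.04308) and Irf2 (-0.03123) with D2-3. With single libraries left out, the ranges were -0.04358 to 0.4253 for Irf1 and -0.1074 to 0.1195 for Stat3 in D0, -0.02011 to 0.3019 for Irf1 and -0.08048 to 0.1488 for Irf8 in D2, and -0.2775 to 0.1663 for Irf1, -0.1743 to 0.2224 for Irf7 and -0.03018 to 0.2166 for Irf8 between D2 and D0. The cause was not tested.

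Over all genes, 2488 were called in D0, against 473 with D2-3, 735 within 3.0.2, 1242 without D0-2, 1251 without mitotic clusters, 1324 without Ctrl-3, 1370 thinned, 1409 with version as a term and 1410 without Ctrl-2. In D2, 2254 were called, against 717 within 3.0.2, 1065 without D2-2, 1169 with version as a term, 1254 with D2-3, 1341 without Ctrl-3, 1366 without mitotic clusters, 1383 without Ctrl-2, 1411 thinned and 1433 without D2-1. Between D2 and D0, 0 became 28 with DESeq2 and 34 with no filter. Of 8 members, 1 (Irf8) had its highest mean in microglia-like cells, and 0 did with a minimum of 10 cells, at resolution 1.0 and with cells thinned. At resolution 0.3 Irf8 was higher in lymphoid-like cells (659.5 CPM against 505.1), and the 1 gene highest in microglia-like cells was Irf5, with no monocyte-like class drawn. At resolution 1.0, with no dendritic cell-like class drawn, classical monocyte-like cells had means of 112.5 CPM of Irf7, 38.48 of Stat2, 64.6 of Irf9 and 211.8 of Irf5. Their ranges then overlapped those of microglia-like cells in Irf9 (from 28.29 against up to 54.17) and Irf5 (from 157.2 against up to 194.5), but not in Irf7 or Stat2. The share of microglia-like cells with an Irf8 UMI, 62.1% at 2000 UMIs, was 39.76% at 1000 and 91.88% unthinned. With 2 or 3 libraries a group, 95% intervals of members that were not called in D0 reached 0.77 on the log2 scale.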
